A study of Homo sapiens with 12 samples.

Results

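The translation factor eIF5A and the enzymes that modify it were followed through a ribosome density gradient of U87MG cells under low oxygen and low pH. The genes are EIF5A, its paralog EIF5A2, deoxyhypusine synthase (DHPS) and deoxyhypusine hydroxylase (DOHH). They were chosen by symbol, as the loci whose gene name holds the symbol as a whole item. Each of the 4 symbols stood in 1 locus that names no other gene, so 4 of 55598 assembled loci are described here. All 4 were among the 12196 loci compared, which are loci other than small RNAs with a mean of at least 1 FPKM (fragments mapped per kilobase of a transcript and scaled for each library).

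eIF5A binds the ribosome and helps it to form peptide bonds at slow stretches such as consecutive prolines, and it also acts in termination. It works only after a lysine has been turned into hypusine, an amino acid known from eIF5A alone. DHPS moves an aminobutyl group from the polyamine spermidine to that lysine, and DOHH, an iron enzyme that uses molecular oxygen, then hydroxylates it. EIF5A is expressed widely, and EIF5A2 is known from testis, brain and some tumours.

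The coding bases around the hypusinated lysine are shown because they bear on which transcripts a short read can tell apart. Codons 44 to 56 are given 5′ to 3′ from GENCODE 29 transcripts (build GRCh38), with the codon of lysine 50 in capitals, for both paralogs and for EIF5AL1, a retrocopy of EIF5A.
EIF5A: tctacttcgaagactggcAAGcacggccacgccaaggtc
EIF5AL1: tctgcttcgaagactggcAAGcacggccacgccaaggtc
EIF5A2: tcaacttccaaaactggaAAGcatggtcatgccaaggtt
The capitals lie in coding exons at chr17:7309783-7309785 (plus strand), chr10:79512797-79512799 (plus strand) and chr3:170907657-170907659 (minus strand). The lysine codon is the same in all 3 genes. EIF5AL1 differed from EIF5A at 1 of these 39 bases and matched it at 457 of 462 coding bases (98.9%). EIF5A2 differed at 8 of the 39 bases and matched at 330 of 459 coding bases (71.9%).

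The cells are an established human glioblastoma line, kept for 24 hours in 1 of 4 conditions: hypoxia (1% oxygen) with acidosis (pH 6.0), hypoxia at pH 7.4, normoxia with acidosis (pH 6.0), and normoxia at pH 7.4. The oxygen level of normoxia is not given in the sources used here. RNA came from the monosome fraction, which includes free RNA, and from the oligosome and polysome fractions, with 1 library per condition and fraction and 12 in all. No condition was replicated, so the sizes below have no replicate check and were not tested, and p-values are absent. Intervals and errors below cover the counting of fragments only. Amounts per cell were not measured, so fewer cells and less RNA per cell cannot be told apart.

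Relative sequencing depth, estimated from what 1 fragment is worth in each library, ran from 0.610 (monosome, hypoxia with acidosis) to 2.43 (polysome, normoxia with acidosis) times that of the monosome library of normoxia at pH 7.4. The 100 most abundant loci held 71.2% of the FPKM in the hypoxia with acidosis monosome library, and 66.2% to 68.7% in the other monosome libraries. They held 30.6% to 52.1% in the oligosome and polysome libraries. Summed FPKM ran from 372405 (polysome, normoxia with acidosis) to 2164044 (monosome, hypoxia with acidosis). FPKM values of different libraries, given below as listed, are thus not on the same scale. Of the glial and mesenchymal markers, VIM averaged 5979 and CD44 averaged 658 FPKM over the 12 libraries, while NES, GFAP, S100B and SOX2 averaged at most 0.792 FPKM. Of 8 markers of other cell types, SNAP25 (4.503 FPKM), EPCAM (1.26 FPKM) and PECAM1 (0.627 FPKM) had the highest means.

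EIF5A (ENSG00000132507, chr17:7306999-7312463, plus strand) was by far the most abundant of the 4 genes, with a mean of 319 FPKM that lay above 97.8% of the compared loci. It had 180.3, 149 and 276 FPKM in the monosome, oligosome and polysome fractions of hypoxia with acidosis. It had 191, 327 and 389 FPKM in those fractions of hypoxia at pH 7.4. It had 155, 295 and 480.2 FPKM in normoxia with acidosis, against 251, 476 and 661 FPKM in normoxia at pH 7.4. Normoxia at pH 7.4 held the highest value in each of the 3 fractions. The 12 values rest on an estimated 1077 to 13781 fragments each for the 1351-base principal transcript. At such counts the counting intervals are narrow, and they do not cover differences between replicates. Those of hypoxia with acidosis and hypoxia overlap in monosomes.

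**Figure D1:**
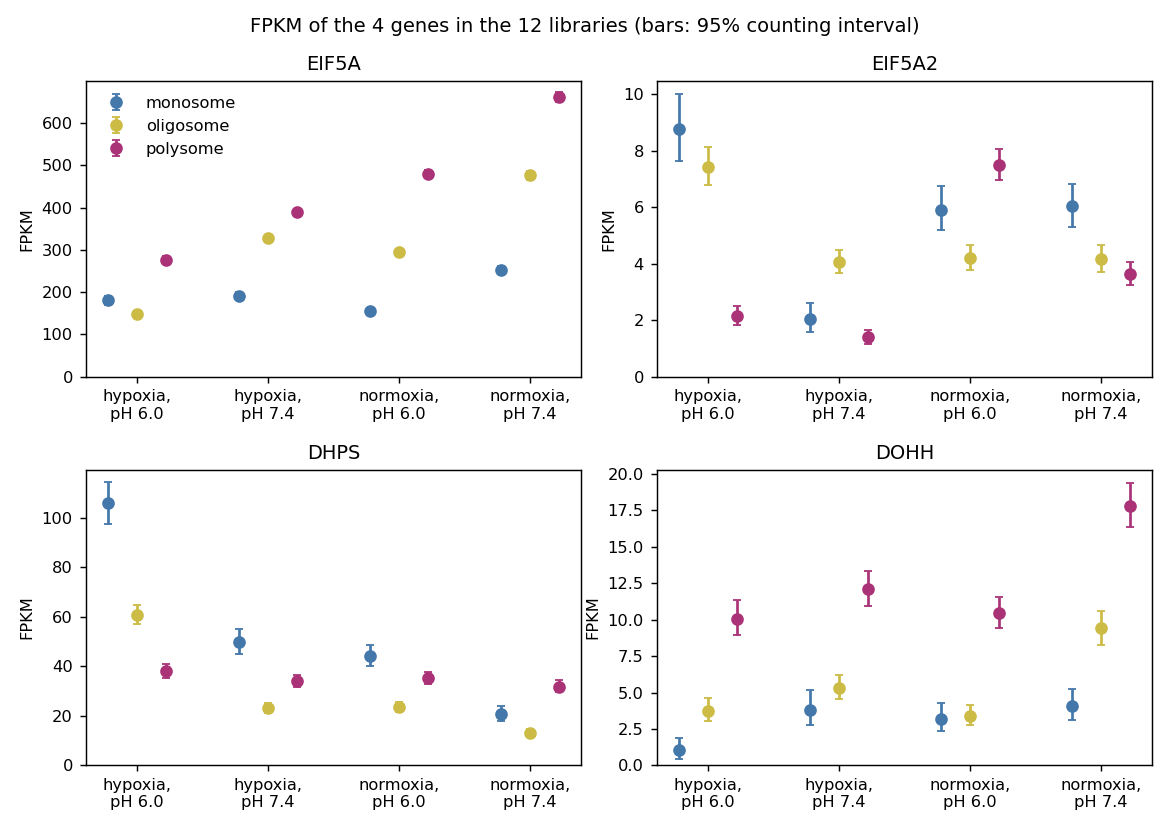
FPKM (vertical axes) of each gene in the 12 libraries, by condition (horizontal axes) and gradient fraction (colour); points are single libraries and bars are 95% counting intervals. EIF5A is highest at pH 7.4 in normoxia in each fraction (251, 476 and 661 FPKM), while DHPS is highest in the monosome fraction of hypoxia with acidosis (106 FPKM).

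The steady-state level, taken after the series design over all fractions, was computed as the mean FPKM of the 3 fractions weighted by the RNA in each. For EIF5A it was 227 FPKM in hypoxia with acidosis, 334 in hypoxia, 369 in normoxia with acidosis and 539 in normoxia at pH 7.4. Changes are log2 differences of level plus 1 FPKM, relative to the median compared locus. EIF5A changed by -0.51 ± 0.01 with acidosis in normoxia, -0.71 ± 0.02 with acidosis in hypoxia, -0.62 ± 0.01 with hypoxia at pH 7.4 and -0.81 ± 0.02 with hypoxia at pH 6.0 (counting SE). Each of these stayed within 2-fold, the size set for calling a steady-state change. Hypoxia with acidosis against normoxia at pH 7.4 gave -1.33 ± 0.02, or 2.51-fold lower, so EIF5A fell past 2-fold there. The same comparison gave -0.59 from monosome libraries alone, which is within 2-fold, and -1.74 from oligosome and -1.27 from polysome libraries. The comparisons with normoxia at pH 7.4 share its libraries, and those with hypoxia with acidosis share its libraries, so they are not independent.

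EIF5A mRNA lay mostly in the heavy part of the gradient in every condition. Weighted by the RNA in each fraction, 68.4% of it was in polysomes in hypoxia with acidosis, 55.1% in hypoxia, 61.5% in normoxia with acidosis and 62.6% in normoxia at pH 7.4. The monosome share was 16.3% in hypoxia with acidosis, 9.26% in hypoxia and 4.05% in normoxia with acidosis, against 6.61% in normoxia at pH 7.4. Hypoxia with acidosis stood out by its oligosome share, 15.3% against 30.8% to 35.7% in the other conditions. All RNA of that condition was spread in the same direction, with 23.4% in the oligosome fraction against 34.9% to 43.2% elsewhere. Polysomes held 56.1%, 47.3%, 47.2% and 50.95% of all RNA in that order of conditions, and monosomes 20.5%, 16.2%, 9.66% and 14.2%. The polysome and monosome shares of all RNA were thus also highest in hypoxia with acidosis, as those of EIF5A were.

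**Figure D2:**
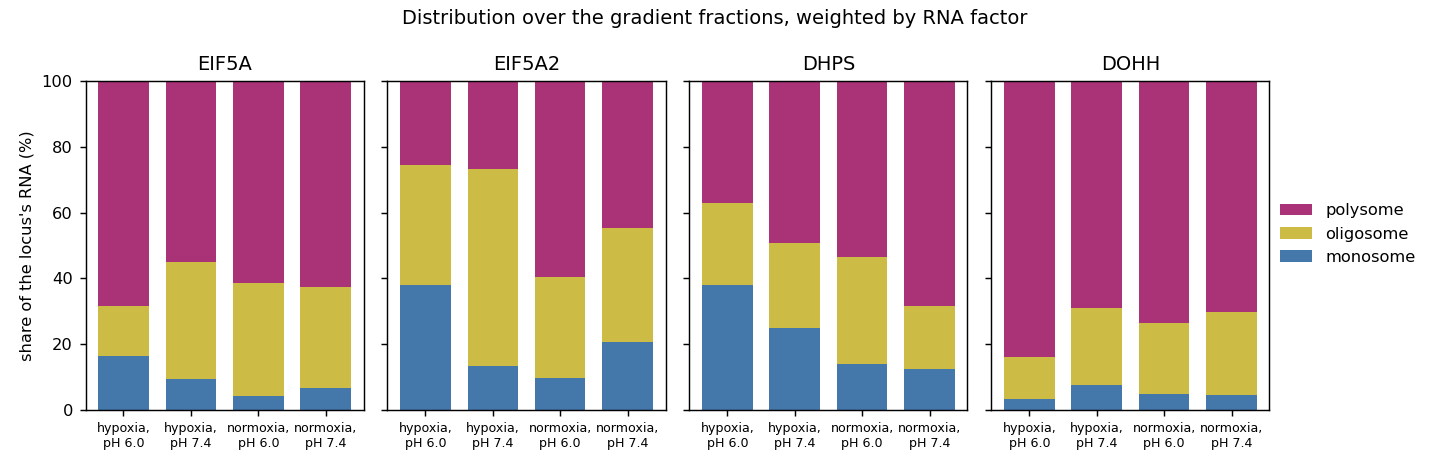
Share of each locus's RNA (vertical axis, %) in the monosome, oligosome and polysome fractions of each condition, as FPKM weighted by the RNA factor of the fraction, 1 library each. The polysome share of DHPS is 37.2% in hypoxia with acidosis and 68.4% in normoxia at pH 7.4, while that of DOHH is 83.9% and 70.2%.

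Translation efficiency (TE) was defined, after the series design, as polysome over monosome level, here (polysome FPKM + 1)/(monosome FPKM + 1), and a change past 1.5-fold was called. The TE ratio of EIF5A was 1.53 in hypoxia with acidosis, 2.03 in hypoxia, 3.09 in normoxia with acidosis and 2.62 in normoxia at pH 7.4, where the median compared locus had 1.06, 1.09, 1.12 and 1.16 in that order of conditions. EIF5A thus stood above the median locus throughout, at the 67.8th, 79.9th, 94.0th and 88.4th percentile. Acidosis gave a log2 TE change of 0.29 ± 0.05 in normoxia and -0.39 ± 0.06 in hypoxia. The change was -0.28 ± 0.05 with hypoxia at pH 7.4, and it fell past 1.5-fold with hypoxia at pH 6.0 (-0.98 ± 0.06) and in hypoxia with acidosis against normoxia at pH 7.4 (-0.73 ± 0.06). Taken as polysome over oligosome, 3 of these turned direction, with 0.14 for hypoxia at pH 6.0, 0.42 for the combined stress and 0.65, past 1.5-fold, for acidosis in hypoxia.

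EIF5AL1 tracked EIF5A in all 12 libraries. Its locus had 6.09 to 36.4 FPKM, which was 4.10% to 5.50% of EIF5A's FPKM in each library. Its steady-state change in hypoxia with acidosis against normoxia at pH 7.4 was -1.46 ± 0.05, beside -1.33 for EIF5A. With 98.9% of coding bases identical, reads can be shared between these loci, and how the authors assigned such reads is not given in the sources used here. Adding the FPKM of EIF5AL1 to EIF5A changed no call, but so small and even a share can hardly move a log2 change. The sum thus does not show how read sharing affects EIF5A. Of the annotated pseudogenes, EIF5AP4 reached at most 0.319 FPKM and was listed at 0 in 9 libraries, and the locus naming EIF5AP2 reached at most 0.0707 FPKM. EIF5AP3 stood in a locus naming 7 genes, so no level is given for it. GPS2, on the opposite strand, overlaps EIF5A by 1140 bases, and whether strand was used in counting is not given in the sources used here.

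**Figure D3:**
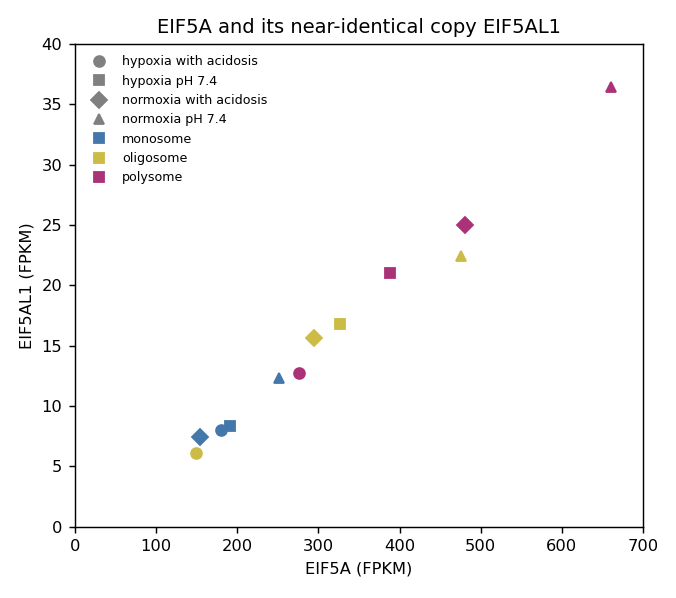
FPKM of EIF5AL1 (vertical axis) against FPKM of EIF5A (horizontal axis) in the 12 libraries, with marker shape for condition and colour for fraction. The points lie along a line through the origin, with EIF5AL1 at 4.10% to 5.50% of EIF5A; near-identical copies can share reads.

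EIF5A2 (ENSG00000163577, chr3:170888415-170908693, minus strand), the paralog that carries the same hypusinated lysine, was a minor transcript with a mean of 4.78 FPKM, above 39.8% of the compared loci. It had 8.77, 7.43 and 2.15 FPKM in the monosome, oligosome and polysome fractions of hypoxia with acidosis. It had 2.03, 4.06 and 1.40 FPKM in hypoxia at pH 7.4. It had 5.92, 4.21 and 7.51 FPKM in normoxia with acidosis, against 6.03, 4.17 and 3.65 FPKM in normoxia at pH 7.4. Its oligosome values in the last 3 conditions lay between 4.06 and 4.21 FPKM, while its polysome values were low in both hypoxic conditions and high in normoxia with acidosis. These values rest on 64 to 739 estimated fragments if all come from the 5593-base principal transcript, and on 6 to 75 if all come from the shortest coding transcript of 565 bases, so their error may be larger than shown.

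No steady-state change of EIF5A2 passed 2-fold. It was 0.46 ± 0.05 and 0.57 ± 0.06 with acidosis (in normoxia and in hypoxia), -0.51 ± 0.06 and -0.38 ± 0.06 with hypoxia (at pH 7.4 and pH 6.0), and 0.07 ± 0.06 in hypoxia with acidosis against normoxia at pH 7.4. EIF5A outnumbered EIF5A2 by 47.9 to 1 in hypoxia with acidosis, 135 to 1 in hypoxia, 62.2 to 1 in normoxia with acidosis and 129 to 1 in normoxia at pH 7.4, as ratios of steady-state FPKM, which is a level per length. The proportion of EIF5A2 was thus higher in both acidic conditions.

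TE of EIF5A2 went opposite ways with acidosis in normoxia and in hypoxia, a difference that was not tested; as polysome over oligosome the changes were 0.92 and -0.34. Its TE ratio was 0.322 in hypoxia with acidosis, 0.792 in hypoxia, 1.23 in normoxia with acidosis and 0.662 in normoxia at pH 7.4. Its log2 TE rose past 1.5-fold with acidosis in normoxia (0.94 ± 0.14) and fell with acidosis in hypoxia (-1.29 ± 0.18). With hypoxia it was 0.35 ± 0.17 at pH 7.4 and fell by 1.90 ± 0.15 at pH 6.0, but as polysome over oligosome it fell at both (-0.90 and -2.18). It fell in hypoxia with acidosis against normoxia at pH 7.4 (-0.99 ± 0.16), and stayed within 1.5-fold there (-0.42) when oligosome and polysome together were set over monosome.

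DHPS (ENSG00000095059, chr19:12675717-12681902, minus strand), which carries out the spermidine-dependent first step, was higher in mRNA level where EIF5A, the mRNA of its substrate, was lower. It had 106, 60.9 and 37.9 FPKM in the monosome, oligosome and polysome fractions of hypoxia with acidosis. It had 49.9, 23.1 and 33.9 FPKM in hypoxia at pH 7.4. It had 44.2, 23.5 and 35.1 FPKM in normoxia with acidosis, against 20.8, 13.0 and 31.9 FPKM in normoxia at pH 7.4. The polysome level was close in the 4 conditions (31.9 to 37.9 FPKM), whereas the monosome level spanned 20.8 to 106 FPKM. It was 5.08, 2.39 and 2.12 times that of normoxia at pH 7.4 in hypoxia with acidosis, hypoxia and normoxia with acidosis. The summed FPKM of these libraries differed too, with 2164044 in hypoxia with acidosis against 921452 in normoxia at pH 7.4. Relative to the median compared locus, the monosome changes were 4.54-, 2.245- and 2.06-fold in that order. The values rest on 206 to 978 estimated fragments, and their counting intervals do not cover differences between replicates.

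The steady-state level of DHPS was 57.2 FPKM in hypoxia with acidosis, 32.6 in hypoxia and 31.0 in normoxia with acidosis, against 23.7 in normoxia at pH 7.4. Its changes were 0.41 ± 0.05 and 0.64 ± 0.05 with acidosis (in normoxia and in hypoxia) and 0.51 ± 0.05 and 0.75 ± 0.05 with hypoxia (at pH 7.4 and pH 6.0). It rose past 2-fold in hypoxia with acidosis against normoxia at pH 7.4 (1.15 ± 0.05, or 2.22-fold), in which the monosome library that is shallowest and most filled by abundant loci takes part. Without the monosome libraries the change was 0.84, and in polysomes alone it was 0.23, both within 2-fold. The part of that library's composition in the result was not tested.

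DHPS mRNA lay lighter in the gradient in each stress condition. Its polysome share was 37.2% in hypoxia with acidosis, 49.3% in hypoxia and 53.5% in normoxia with acidosis, against 68.4% in normoxia at pH 7.4. Its TE ratio was 0.365, 0.686 and 0.799 in the stress conditions in that order, against 1.504 in normoxia at pH 7.4. Log2 TE fell past 1.5-fold in all 5 comparisons. It fell with acidosis in normoxia (-0.86 ± 0.14) and in hypoxia (-0.90 ± 0.12), and with hypoxia at pH 7.4 (-1.04 ± 0.14) and at pH 6.0 (-1.10 ± 0.11). The mean over the pairs was -0.88 for acidosis and -1.07 for hypoxia, a value that only 9.6% and 8.8% of the compared loci went below, and hypoxia with acidosis against normoxia at pH 7.4 gave -1.99 ± 0.13. With FPKM multiplied by the authors' RNA factors and no centring, acidosis in normoxia gave -0.49, within 1.5-fold. With oligosome plus polysome set over monosome, acidosis in hypoxia gave -0.44 and hypoxia at pH 6.0 gave -0.57, also within it. In polysome RNA scaled in this way DHPS stood at 0.934, 0.8 and 1.003 times normoxia at pH 7.4 in hypoxia with acidosis, hypoxia and normoxia with acidosis. AC010422.8, a coding gene on the same strand, overlaps DHPS by 6118 bases and WDR83 overlaps it on the opposite strand by 116 bases, so reads at this locus may not all belong to DHPS.

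DOHH (ENSG00000129932, chr19:3490822-3500940, minus strand), the oxygen-using second enzyme, overlaps no other annotated gene and had a mean of 7.04 FPKM, above 50.4% of the compared loci. It had 1.04, 3.74 and 10.1 FPKM in the monosome, oligosome and polysome fractions of hypoxia with acidosis. It had 3.83, 5.33 and 12.1 FPKM in hypoxia at pH 7.4. It had 3.22, 3.39 and 10.4 FPKM in normoxia with acidosis, against 4.09, 9.40 and 17.8 FPKM in normoxia at pH 7.4. The polysome value was the highest of the 3 fractions in every condition, and normoxia at pH 7.4 had the highest value in each fraction. In monosomes its counting interval (3.11 to 5.25 FPKM) overlapped those of hypoxia and of normoxia with acidosis. The monosome value of hypoxia with acidosis rests on an estimated 9 fragments (95% counting interval 0.458 to 1.90 FPKM), and the other 11 values on 44 to 558.

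The steady-state level of DOHH was 6.74 FPKM in hypoxia with acidosis, 8.31 in hypoxia and 6.70 in normoxia with acidosis, against 12.9 in normoxia at pH 7.4. Its changes were -0.82 ± 0.07 and -0.42 ± 0.08 with acidosis (in normoxia and in hypoxia), -0.52 ± 0.07 and -0.10 ± 0.09 with hypoxia (at pH 7.4 and pH 6.0), and -0.93 ± 0.08 in hypoxia with acidosis against normoxia at pH 7.4. None passed 2-fold. The last passed it under 6 other settings, from -1.03 with a pseudocount of 0.1 FPKM to -1.43 in monosomes alone.

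DOHH was among the mRNAs most concentrated in polysomes. Its TE ratio was 5.44 in hypoxia with acidosis, 2.72 in hypoxia, 2.71 in normoxia with acidosis and 3.70 in normoxia at pH 7.4, at or above the 90.4th percentile in each. Log2 TE was -0.40 ± 0.24 with acidosis in normoxia and -0.35 ± 0.25 with hypoxia at pH 7.4. It rose past 1.5-fold with acidosis in hypoxia (1.01 ± 0.31), with hypoxia at pH 6.0 (1.03 ± 0.31) and in hypoxia with acidosis against normoxia at pH 7.4 (0.61 ± 0.30). These 3 comparisons share the monosome library in which DOHH had an estimated 9 fragments, and the last was 0.30 with the authors' RNA factors, within 1.5-fold. Taken as polysome over oligosome, DOHH gave -0.20 with hypoxia at pH 6.0, 0.17 with acidosis in hypoxia and 0.37 under the combined stress, all within 1.5-fold, and 0.59, past it, with acidosis in normoxia.

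All 4 genes were set beside the compared loci, to read their counts against how often any locus passed. In steady state 0 of 4 passed 2-fold with acidosis in normoxia, where 3.82% of the compared loci were higher and 2.38% lower, or with acidosis in hypoxia, where 7.28% were higher and 6.72% lower. With hypoxia 0 of 4 passed at pH 7.4 (5.59% of loci were higher and 5.05% lower) or at pH 6.0 (8.29% higher and 8.27% lower). In hypoxia with acidosis against normoxia at pH 7.4, DHPS was higher (14.6% of loci were) and EIF5A was lower (13.6% were). In both pairs of a factor 0 of 4 passed, beside 1.37% of loci higher and 0.328% lower with acidosis, and 2.56% higher and 1.4% lower with hypoxia.

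In TE many loci passed 1.5-fold, which limits what a single passing comparison shows. With acidosis in normoxia 1 gene was higher (15.5% of the compared loci) and 1 lower (16.8%). With acidosis in hypoxia 1 was higher (27%) and 2 lower (28.3%). With hypoxia at pH 7.4, 0 were higher (19.5%) and 1 lower (21.4%), and at pH 6.0, 1 was higher (27.4%) and 3 lower (29%). In hypoxia with acidosis against normoxia at pH 7.4, 1 was higher (27.8%) and 3 were lower (29.8%). In both pairs of a factor DHPS alone of the 4 was lower, with acidosis (6.67% of the compared loci were lower and 5.72% higher) and with hypoxia (10.1% were lower and 8.79% higher).

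**Figure D4:**
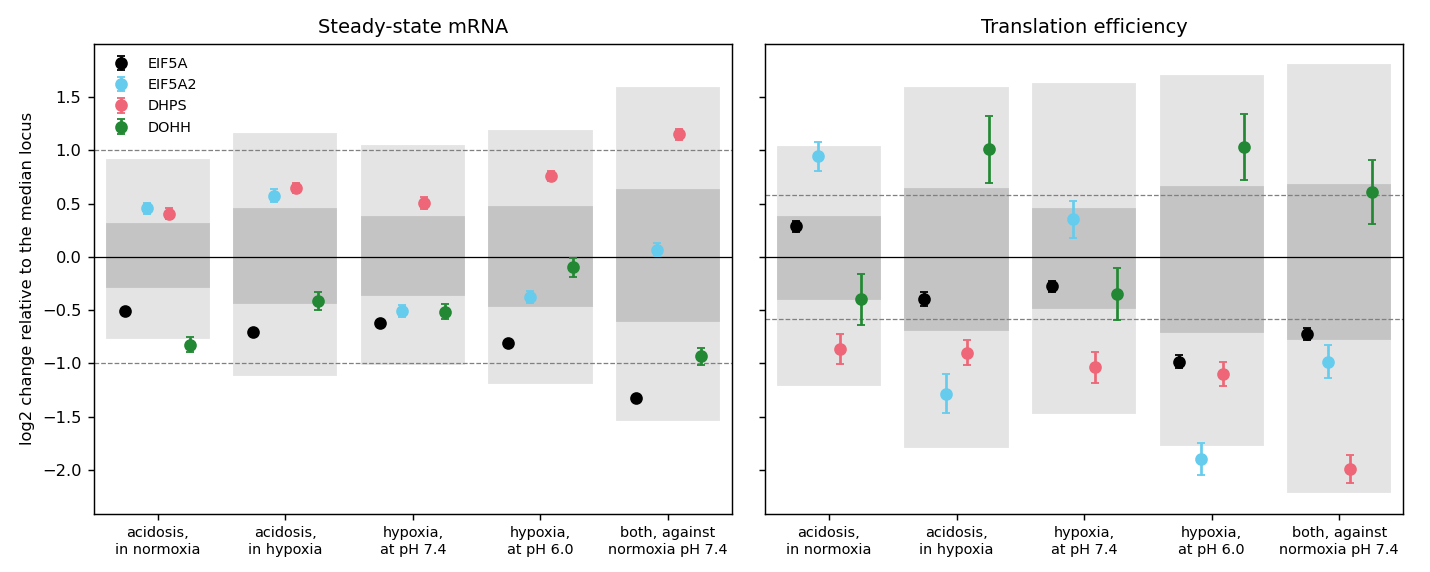
Log2 change relative to the median locus (vertical axis) in steady-state mRNA and TE for 5 comparisons (horizontal axis); points are the 4 genes with counting SE, dark and light grey boxes hold the middle 50% and 90% of the 12196 compared loci, and dashed lines mark 2-fold (left) and 1.5-fold (right). DHPS lies below the dashed line in TE in all 5 comparisons, while the other genes change side.

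The balance between substrate and enzymes in mRNA differed most for DHPS. EIF5A over DHPS, as a ratio of steady-state FPKM, was 3.97 in hypoxia with acidosis, 10.3 in hypoxia and 11.9 in normoxia with acidosis, against 22.7 in normoxia at pH 7.4. These ratios include the monosome libraries. In polysomes alone, DHPS in hypoxia with acidosis had 1.19 times its FPKM in normoxia at pH 7.4, and EIF5A had 0.418 times. Reads at the DHPS locus may also belong in part to the overlapping genes. EIF5A over DOHH was 33.7, 40.2 and 55.05 in those stress conditions, against 41.7 in normoxia at pH 7.4. The enzymes also differed in proportion, with DHPS over DOHH at 8.49, 3.92 and 4.63 in the stress conditions, against 1.83 in normoxia at pH 7.4.

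Across the 12 libraries, likeness was measured as the root mean square difference of log2(FPKM + 1), after taking out each library's median and each locus's mean, over 5187 single-gene loci (5188 for EIF5A2) with a mean of at least 5 FPKM. The pattern nearest to EIF5A was that of EIF5AL1 (0.0876), then of DENR, a factor of ribosome recycling and reinitiation (0.211), and COMMD10 (0.222), where the median locus differed by 0.833. Nearest to DHPS were C2orf49 (0.197), MRPL10, a mitochondrial ribosomal protein (0.221), and COX4I1, a subunit of cytochrome c oxidase (0.231). Nearest to DOHH were the growth factor receptor gene FGFR1 (0.224) and LARP1, an RNA-binding protein of mRNAs that encode ribosomal proteins (0.268). EIF5A2 had no pattern as near, with SFXN4 at 0.381, the DNA repair gene XPA at 0.419 and ST7L at 0.427. Among the 4 genes, EIF5A and DOHH were nearest to each other (0.490) and DHPS and DOHH farthest apart (1.39).

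Spermidine, the donor for hypusine, is made from ornithine and S-adenosylmethionine. Measured were 5 genes of that route, its regulation and the onward step from spermidine to spermine (SMS). In steady state ODC1, ornithine decarboxylase, fell past 2-fold with hypoxia in both pairs (-2.12 at pH 7.4 and -1.35 at pH 6.0), 1 of 5 genes, where 1.4% of the compared loci did. Its level was 20.7 FPKM in hypoxia with acidosis and 13.9 in hypoxia, against 50.2 in normoxia with acidosis and 66.4 in normoxia at pH 7.4. AMD1, which supplies the aminopropyl donor, changed by -2.70 and spermine synthase SMS by 1.54 in hypoxia with acidosis against normoxia at pH 7.4. In TE, 3 of 5 genes fell past 1.5-fold with hypoxia in both pairs, where 10.1% of the compared loci fell. These were the antizyme inhibitor AZIN1 (mean -1.12), spermidine synthase SRM (-1.30) and SMS (-1.03). The list median was -1.03, which is the value of SMS. With acidosis 1 of 5 fell in TE, AMD1 (-1.51), where 6.67% of the compared loci did.

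Of 5 genes of polyamine breakdown and antizymes, the spermidine and spermine acetyltransferase SAT1 rose past 2-fold in steady state with acidosis in both pairs (2.02 in normoxia and 1.42 in hypoxia), 1 of 5 genes, where 1.37% of the compared loci did. PAOX, in a locus naming 3 genes, went the other way. Its level was 6.71 FPKM in normoxia with acidosis against 14.97 in normoxia at pH 7.4, and 7.35 in hypoxia with acidosis against 9.01 in hypoxia. It fell past 2-fold with acidosis in normoxia, 1 of 5 genes, where 2.38% of the compared loci did. SAT1 also rose in TE with acidosis (mean 1.03), together with spermine oxidase SMOX (0.81) and antizyme OAZ2 (1.71). Thus 3 of 5 passed 1.5-fold in both pairs, with a list median of 0.81, where 5.72% of the compared loci passed. SMOX, whose value is that median, had an estimated 29 fragments in polysomes of normoxia at pH 7.4. It had 27 in monosomes of hypoxia with acidosis. With hypoxia 0 of 5 passed in both pairs in either measure. For all lists the median over the compared loci is 0 in each single comparison by construction, and these counts rest on 1 library per condition and fraction.

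The list for eIF5A export and acetylation held 4 genes. XPO4 and HDAC6 had means of 0.976 and 0.0159 FPKM, below the minimum. SIRT1, whose action on eIF5A is not established here, was carried by 2 compared loci that differed in pattern. These 3 were not counted. KAT2B, in a locus naming 2 genes, passed neither threshold in both pairs of a factor.

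Other elongation and termination factors gave 9 genes to set beside eIF5A. In hypoxia with acidosis against normoxia at pH 7.4, 4 of 9 rose past 2-fold in steady state, EEF2 (2.45), EEF1A1 (2.05), EEF1D (1.33) and EEF1G (1.16), and 1 of 9, the recycling factor ABCE1, fell (-1.52), where 14.6% of the compared loci rose and 13.6% fell. EIF5A had -1.33 there. EEF1G stands in a locus naming 3 genes, and EEF1A1 has many processed pseudogenes with which reads can be shared. In TE 6 of 9 fell with acidosis in normoxia (16.8% of the compared loci did) and 5 of 9 with hypoxia at pH 7.4 (21.4% did), among them EEF1A1 (-1.71 and -1.72) and EEF2 (-1.14 and -1.04). The termination factor GSPT1, in a locus naming 3 genes, rose with hypoxia at pH 7.4 (1.06), 1 of 9 (19.5% of loci did). With acidosis in hypoxia and with hypoxia at pH 6.0, 3 of 9 rose in TE in each (27% and 27.4% of the compared loci did), EEF2 (2.18 and 2.25), EEF1A1 (1.15 and 1.11) and EEF1G (0.92 and 0.78). In the same comparisons 2 of 9 fell (28.3% and 29% of loci did), ABCE1 (-2.04 and -1.52) and the termination factor ETF1 (-1.51 and -1.35). EIF5A stayed within 1.5-fold in TE in 3 of these comparisons and fell with hypoxia at pH 6.0, as ABCE1 and ETF1 did.

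Of 5 genes of the TSC complex and mTORC1, 0 passed in both pairs of either factor in steady state or TE. Of the compared loci, 0.328% to 2.56% passed in a given direction in steady state and 5.72% to 10.1% in TE. TSC2 had the widest range in TE, at -0.95 with acidosis in normoxia and 3.03 with hypoxia at pH 6.0, on a mean level of 6.27 FPKM. Over the 25 genes counted in the 5 lists, both pairs of acidosis gave 1 higher and 0 lower in steady state. Of the compared loci, 1.37% were higher and 0.328% lower there. With hypoxia 0 of 25 were higher and 1 lower in steady state, beside 2.56% and 1.4% of the compared loci. In TE 3 of 25 were higher and 2 lower with acidosis, beside 5.72% and 6.67% of the compared loci. With hypoxia 0 of 25 were higher and 3 lower in TE, beside 8.79% and 10.1% of the compared loci. The number lower was 5 with no centring and 9 with the authors' RNA factors. The share of all loci was not computed under those settings, so these 2 counts cannot be set against 10.1%. With the RNA factors and no centring, the median compared locus itself moved by -0.39 at pH 7.4 and by -0.73, past 1.5-fold, at pH 6.0.

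**Figure D5:**
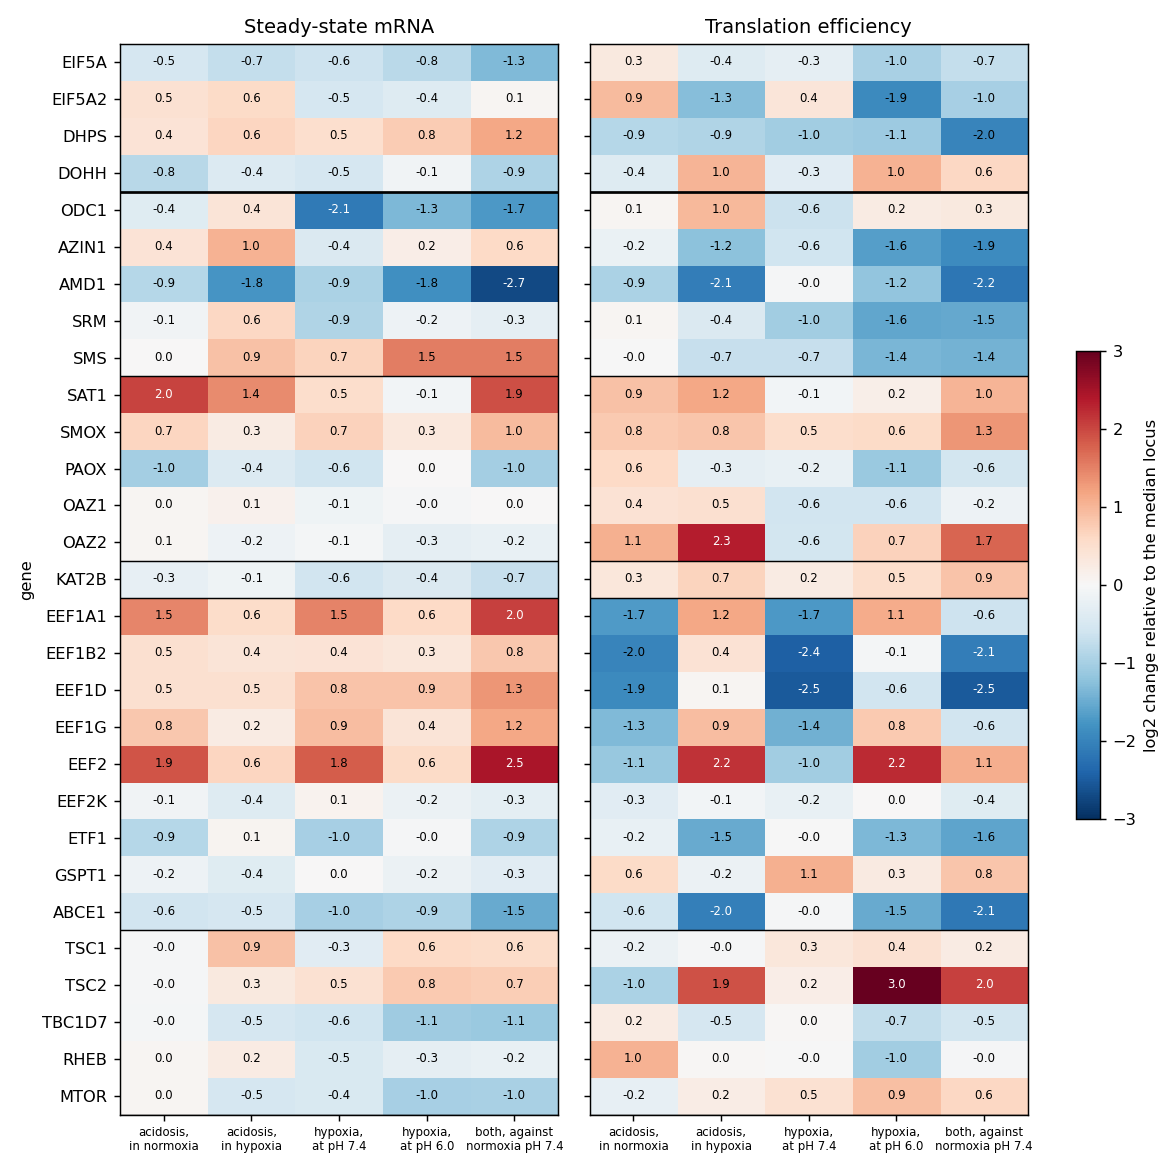
Log2 change relative to the median locus (colour and printed value) in steady-state mRNA and TE for the 4 genes (top block) and the 25 genes of the 5 lists (blocks below, in the order of the text), with the 5 comparisons as columns. ODC1 and AMD1 are low in steady state in hypoxia with acidosis, SAT1 is high in both acidosis comparisons, and the TE of EEF1A1 and EEF2 is low in the comparisons with normoxia at pH 7.4 under a single stress and high in those that add the other stress.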

How the data were processed

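RNA was measured in 12 libraries of U87MG cells, 1 per condition and fraction, prepared with a kit that marks strand, per the labels' protocols. The authors deposited FPKM values per assembled locus, and a signal that is FPKM times an RNA factor per library, per the file headers; from the signal only the 12 factors were taken. Tools in the submitters' processing notes are STAR 2.5.0, Cufflinks 2.2.1, bcl2fastq and Cuffnorm, with the build GRCh38; their roles, the annotation and Cuffnorm's scaling are not stated there. Another 12 columns of per-sample values were not used.

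Levels, TE and changes were computed in Python 3.11.15 (pandas 2.3.3, numpy 2.4.6, scipy 1.17.1) as stated above, with a pseudocount of 1 FPKM, which understates changes of low loci, and tested on simulated data. Small RNA loci (4754) were left out. The effect of acidosis or hypoxia is the mean of 2 pairs, and passes when both pairs pass the same way. Depth was estimated from FPKM steps of 2684 single-exon loci of over 600 bases, and fragments from it and the GENCODE 29 principal transcript. Members and lists were chosen with earlier results of these data known. Named were all members, their copies, every counted list gene and the 3 nearest patterns per member; the third for DOHH carries a date in place of a symbol and is not named. Alternatives covered pseudocount, filter, centring, RNA scaling, weighting and fractions.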

Additional observations from a re-analysis of the deposited data

Results flagged for a closer look

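In 5 cases a gene's TE went opposite ways under the same stress in the other setting; each rests on 1 library per condition and fraction, and the difference was not tested. For EIF5A the log2 TE change with acidosis was 0.2857 in normoxia and -0.3947 in hypoxia, both within 1.5-fold. For EIF5A2 it was 0.942 in normoxia and -1.2859 in hypoxia with acidosis as the stress, and 0.3518 at pH 7.4 and -1.9016 at pH 6.0 with hypoxia as the stress. For DOHH it was -0.3977 in normoxia and 1.0108 in hypoxia with acidosis, and -0.348 at pH 7.4 and 1.035 at pH 6.0 with hypoxia. As polysome over oligosome, 3 of the 5 cases no longer went opposite ways, namely EIF5A with acidosis (0.29 and 0.65), EIF5A2 with hypoxia (-0.90 and -2.18) and DOHH with acidosis (0.59 and 0.17). EIF5A2 with acidosis still did (0.92 and -0.34), and DOHH with hypoxia did with both signs turned (0.23 and -0.20). The second value of each pair uses the libraries of hypoxia with acidosis, whose monosome library is the shallowest (0.610 of the depth of the monosome library of normoxia at pH 7.4), and the part of that depth was not tested.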

How the results depend on the processing

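No paired analysis was possible because the labels give 1 library, and so 1 replicate number, per condition and fraction. For acidosis, hypoxia and the combined stress, 202 values of the 4 genes kept their direction and side of the threshold under other settings, 12 lost it, 9 gained it, 10 moved and 1 reversed; the cause was not tested. The settings with no filter on low loci and with no centring gave equal steady-state values for EIF5A, EIF5A2, DHPS and DOHH. The 202 values are thus not all separate checks. The steady state from oligosome and polysome together, and the sum of EIF5A and EIF5AL1, were chosen after seeing the data. Adding EIF5AL1 changed no call, and with its small and even share of EIF5A it could hardly do so. With the authors' RNA factors and no centring, the median locus moved by -0.31 in steady state and -0.39 in TE in hypoxia with acidosis against normoxia at pH 7.4, and by -0.73 in TE with hypoxia at pH 6.0.

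In steady state, hypoxia with acidosis against normoxia at pH 7.4 gave -0.59 for EIF5A in monosomes alone. For EIF5A2 it gave -0.044 with a mean of at least 5 FPKM, -0.24 with RNA scaling, -0.58 in polysomes alone and -0.067 without monosomes. For DHPS it gave 0.76 with RNA scaling, 0.23 in polysomes alone and 0.84 without monosomes. For DOHH it gave -1.03 with a pseudocount of 0.1 FPKM, -1.04 with a mean of at least 5 FPKM, -1.26 with RNA scaling, -1.03 unweighted, -1.43 in monosomes alone and -1.20 in oligosomes alone. The hypoxia effect was 0.33 for EIF5A2 in oligosomes alone and 1.14 for DHPS in monosomes alone.

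For TE as polysome over oligosome, EIF5A gave 0.65 with acidosis in hypoxia, 0.14 with hypoxia at pH 6.0, 0.42 under the combined stress and 0.47 for acidosis. EIF5A2 then gave -0.90 with hypoxia at pH 7.4, 0.29 for acidosis and -1.54 for hypoxia. DOHH then gave 0.59 with acidosis in normoxia, -0.20 with hypoxia at pH 6.0 and 0.37 under the combined stress. With RNA scaling, EIF5A gave 0.088 for acidosis and -1.26 for hypoxia, EIF5A2 gave 0.034 for acidosis, DHPS gave -0.75 for acidosis, and DOHH gave 0.30 under the combined stress and -0.17 for hypoxia. With oligosome plus polysome over monosome, EIF5A2 gave -0.42 under the combined stress, and DHPS gave -0.59 for acidosis and -0.72 for hypoxia, each with a pair within 1.5-fold. DOHH gave 0.56 under the combined stress with no filter and likewise with no centring.

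Of the 25 list genes, those lower in steady state with hypoxia numbered 2 with a pseudocount of 0.1 FPKM, 2 with no centring and 3 with RNA scaling. Lower in TE were 1 with acidosis under RNA scaling, 5 with hypoxia under no centring and 9 with hypoxia under RNA scaling. At a pseudocount of 0.1 FPKM, 2 were higher in TE with hypoxia. The share of all compared loci passing under these settings was not computed, so these counts have no background beside them.

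Without RNA weights, the polysome share of FPKM in hypoxia with acidosis, hypoxia, normoxia with acidosis and normoxia at pH 7.4 was 45.7%, 42.9%, 51.7% and 47.6% for EIF5A. It was 11.7%, 18.7%, 42.6% and 26.4% for EIF5A2, 18.5%, 31.7%, 34.1% and 48.5% for DHPS, and 67.8%, 56.99%, 61.2% and 56.9% for DOHH. Depth limits DOHH most, with an estimated 9 fragments in its lowest library.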

Other observations

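The locus naming SIRT1 with the higher level had 1143, 178, 701 and 1507 FPKM in the monosome fractions. The conditions in order are hypoxia with acidosis, hypoxia, normoxia with acidosis and normoxia at pH 7.4. In the polysome fractions it had 7.77, 0.53, 2.44 and 3.26 FPKM in the same order. The other locus naming SIRT1 stayed between 0.995 and 4.16 FPKM in the 12 libraries, and which of them holds the SIRT1 mRNA cannot be read from the deposited names.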
